A study of Homo sapiens with 6 samples.

Results

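The genes described here encode the DNA polymerases of the cell, the sliding clamp and its loaders, the enzymes that process Okazaki fragments, and the proteins that steady the replication fork. They were chosen by name, by a rule that uses no measured value but was written with earlier results of these data known, from the table of read counts of the 6 libraries. Of 41 names, 40 had a row of their own among the 15585 genes of that table. The remaining name, AND1, is a former name of WDHD1 and had no row of its own. All 40 genes passed the filter on low counts, which 11844 genes of the table passed.

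RNA was sequenced from U2OS cells, a human osteosarcoma line, transfected for 48 h, with 3 libraries for control siRNA (siCTR) and 3 for siRNA against LSD1 (siLSD1), the histone demethylase encoded by KDM1A. The question put to these libraries was whether loss of LSD1 alters transcripts of the replication machinery. The labels do not say that the replicates came from separate cultures, so the p-values measure the spread between these libraries, and which of the LSD1 siRNAs of the study went into the RNA-seq libraries was not stated.

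At a replication fork, polymerase alpha-primase lays down short primers, after which polymerase epsilon extends the leading strand and polymerase delta the lagging strand. Replication factor C loads PCNA, the ring that holds polymerases on DNA, and FEN1, DNA2, RNase H2 and LIG1 turn the short fragments of the lagging strand into a continuous strand. Translesion polymerases copy damaged templates, repair polymerases fill gaps away from the fork, and polymerase gamma copies the mitochondrial genome. Many of these genes are transcribed under E2F factors as cells enter S phase, so their RNA rises and falls with the cell cycle.

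Counted reads per library ranged from 12513511 to 13561344. KDM1A stood at 473, 506 and 489 CPM (reads relative to the library total, scaled by the TMM method) in siCTR and at 82.7, 96.1 and 92.4 CPM in siLSD1, so the knockdown was present in each siLSD1 library. Its log2 fold change was -2.44 (SE 0.11, adjusted p = 2.27e-07 by edgeR's quasi-likelihood test, Benjamini-Hochberg adjusted). The 6 mesenchymal and osteoblast markers, mostly VIM, summed to 12314 to 14667 reads per library, while RUNX2 (0 to 4 reads) and SPARC (0 to 3 reads) were near 0. Within this list FN1 rose by 0.95 on the log2 scale (adjusted p = 0.0216 by edgeR, but 0.0505 without siLSD1 replicate 1 and 0.0541 without siLSD1 replicate 3), and S100A4 had a value of -0.39 (adjusted p = 0.223 by edgeR). Markers of epithelial cells summed to 102 to 126 reads in siCTR and 156 to 182 in siLSD1, a difference carried by CDH1 (log2 fold change 0.77, adjusted p = 0.0699 by edgeR), with EPCAM at -0.06 and KRT5 and KRT14 at 0 to 5 reads. Those of endothelial cells summed to 63 to 111 and 159 to 170 reads, nearly all from VWF, at 0.87 (adjusted p = 0.0418 by edgeR). The VWF call was lost without any 1 of 5 libraries (adjusted p = 0.0728 to 0.181 by edgeR) and held without siCTR replicate 1 (0.0259). With the correction for GC content and length, S100A4 and CDH1 also passed (adjusted p = 0.0342 and 0.0266 by edgeR). Blood markers summed to 102 to 124 and 103 to 154 reads. Their part in the results was not tested. A pair of libraries stood apart. siCTR replicate 2 had short transcripts high and long transcripts low, and siLSD1 replicate 3 had GC-rich transcripts low, with a median log2 deviation of -0.27 in the most GC-rich bin of genes. In that bin siLSD1 replicate 1 and siCTR replicate 1 lay the other way, at 0.16 and 0.14. siCTR replicate 2 and siLSD1 replicate 3 each held the highest or lowest of the 6 values in 55.0% of the 40 genes, against 51.7% and 46.2% of all tested genes. For many genes the value without 1 of these libraries is given too.

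None of the 40 genes passed an adjusted p under 0.05 by edgeR's quasi-likelihood test, where 1.44% of all tested genes did (1.07% higher and 0.371% lower). The lowest adjusted p was 0.174, for POLB, by edgeR's test with Benjamini-Hochberg adjustment. DESeq2 and limma-voom also gave 0 genes at this threshold. At an unadjusted p under 0.05, 3 of the 40 genes (7.5%) passed with edgeR, DESeq2 and limma-voom alike, against 14.0% of all tested genes with edgeR (7.48% higher and 6.55% lower). These were TIMELESS, higher in siLSD1, and POLB and POLE4, both lower. In 5 genes (12.5%) the libraries of the groups did not overlap, against 21.4% of all tested genes (11.4% higher and 9.97% lower). TIMELESS and RFC1 lay above siCTR in every siLSD1 library, and POLE4, POLB and DNA2 lay below.

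The log2 fold changes of the 40 genes ranged from -0.44 to 0.29, with a median of -0.04, beside a median of -0.01 over all tested genes. The value was above 0 for 15 genes and below 0 for 25. For 31 of the 40 genes (77.5%) the whole 95% confidence interval lay between -0.5 and 0.5, against 51.8% of all tested genes. The median interval reached 0.30 to either side of its estimate, so a change of that size would not be told from 0 for a typical gene of the group. These intervals are not adjusted for the number of genes. Larger changes can miss the adjusted threshold, as POLB did at -0.44. The summed level of the 40 genes was 3461 to 3475 CPM in siCTR and 3397 to 3416 CPM in siLSD1. In RNA from whole cultures, fewer cells in S phase and less RNA per cell cannot be told apart.

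**Figure D1:**
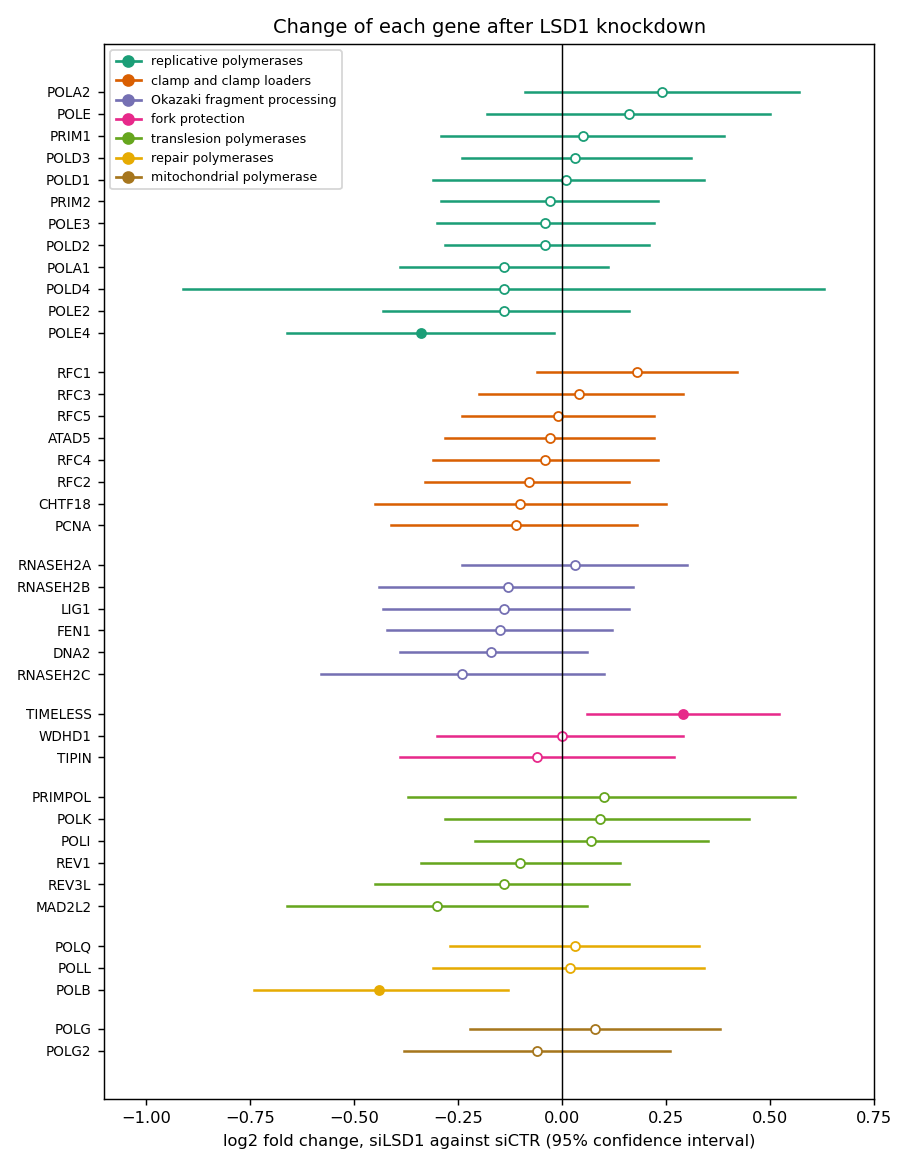
Log2 fold change of each of the 40 genes in siLSD1 against siCTR (points) with its 95% confidence interval (lines), grouped by role and ordered by value within a role. Filled points mark an unadjusted p under 0.05, which TIMELESS, POLE4 and POLB reached, and the intervals of all other genes cross 0.

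Over the 12 subunits of the replicative polymerases the median log2 fold change was -0.03 (5 above 0 and 7 below), and their levels summed to 1083 to 1187 CPM in siCTR and 1118 to 1145 CPM in siLSD1. POLE4, a small histone-fold subunit of polymerase epsilon, was counted 484, 568 and 460 times in siCTR, and 450, 405 and 342 times in siLSD1. In CPM these were 37.3, 44.2 and 34.2 against 33.5, 32.5 and 25.4, so the groups were separated by only the gap between siCTR replicate 3 and siLSD1 replicate 1. The means were 38.6 ± 5.13 for siCTR and 30.5 ± 4.45 CPM for siLSD1 (SD, n = 3). The log2 fold change was -0.34 (SE 0.15, 95% confidence interval -0.66 to -0.02), with an unadjusted p of 0.0377 and an adjusted p of 0.316 by edgeR's quasi-likelihood test. Without siCTR replicate 2, edgeR gave -0.23 (unadjusted p = 0.139), and without siLSD1 replicate 3 it gave -0.22 (unadjusted p = 0.141). The unadjusted p by edgeR was 0.0531 without siLSD1 replicate 2 and 0.0560 with the other read counts deposited for these libraries. POLE3, the histone-fold partner of POLE4, had a log2 fold change of -0.04, or 0.08 without siCTR replicate 2. The ratio of POLE3 to POLE4, on the per-length FPKM scale, was 1.87, 2.05 and 2.19 in siCTR and 2.38, 2.23 and 3.02 in siLSD1.

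POLE, the catalytic subunit of polymerase epsilon, stood at 249, 151 and 231 CPM in siCTR and 247, 223 and 235 CPM in siLSD1. The siCTR replicate 2 value was the lowest of the 6, and the other 5 libraries lay within 223 to 249 CPM. The log2 fold change of 0.16 (SE 0.16) became -0.03 without that library. POLE2, the essential accessory subunit, had a log2 fold change of -0.14 (SE 0.14), with -0.08 without siCTR replicate 2 and -0.04 without siLSD1 replicate 1.

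POLA1, the catalytic subunit of polymerase alpha, was at 285, 249 and 300 CPM in siCTR and at 234, 249 and 275 CPM in siLSD1. The groups overlapped, and the log2 fold change was -0.14 (SE 0.12), with -0.21 to -0.08 when 1 library was left out, -0.08 being reached without siCTR replicate 3 or siLSD1 replicate 1. POLA2, the regulatory subunit of the same enzyme, had the highest value of the replicative class at 0.24 (SE 0.15). Its counts were 179, 191 and 175 in siCTR and 252, 202 and 191 in siLSD1, so siLSD1 replicate 1 stood above the rest. Without that library the POLA2 value was 0.13. PRIM1, which makes the RNA primer, and PRIM2, its partner subunit, had log2 fold changes of 0.05 and -0.03.

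POLD1, the catalytic subunit of polymerase delta, was at 81.9, 63.8 and 69.5 CPM in siCTR and at 85.8, 73.0 and 58.5 CPM in siLSD1. The spread within each group was wider than the difference between the means, 71.8 ± 9.25 and 72.5 ± 13.7 CPM (SD, n = 3). The accessory subunits POLD2 and POLD3 had log2 fold changes of -0.04 and 0.03. POLD4, the small subunit that is removed from the enzyme after DNA damage, was counted in only 11 to 16 reads per library, and its interval ran from -0.91 to 0.63, which leaves its change undetermined at this depth.

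Words bound by E2F factors were searched in the RefSeq promoters of these genes on GRCh38.p14, each running from 250 bases before to 50 bases after the start. TTTCCCGC, TTTCGCGC, TTTGCCGC and TTTGGCGC, read on both strands, occurred in 9 of the 36 member promoters held by the table (25.0%), against 4.9% of 11944 promoters of genes in the count table and 3.3% of 27305 promoters in all. The replicative polymerases held the words most often, with 5 of 11 promoters. Windows of 30 bases around the word are shown for these 5 and for PCNA, since such words stood beside genes whose values lay on both sides of 0. They are printed 5′ to 3′ on the strand of the gene, with the word or its reverse complement in capitals:
POLA1: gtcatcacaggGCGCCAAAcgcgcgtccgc
POLA2: ttggctcccggTTTCGCGCatgcgtgcact
POLE: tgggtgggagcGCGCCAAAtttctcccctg
POLE2: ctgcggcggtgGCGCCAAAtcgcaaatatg
POLE4: ctccagcccgcGCGGGAAAgggcctgcgcc
PCNA: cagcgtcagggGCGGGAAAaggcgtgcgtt

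The windows lie at chrX:24693770-24693799 (POLA1), chr11:65261898-65261927 (POLA2), chr12:132687342-132687371 (POLE), chr14:49688201-49688230 (POLE2), chr2:74958601-74958630 (POLE4) and chr20:5126663-5126692 (PCNA), with POLE, POLE2 and PCNA on the minus strand. The capitals begin between 137 bases before the start (POLA1) and 5 bases before it (POLE2). The other promoters with a word were those of RFC3, LIG1 and POLI. The median log2 fold change was -0.11 for genes with a word (n = 9, range -0.34 to 0.24) and -0.04 for those without one (n = 27, range -0.30 to 0.29), with 5 of 9 and 17 of 27 below 0. Without siCTR replicate 2 these medians were -0.03 and 0.01, and without siLSD1 replicate 3 they were -0.02 and -0.05, so neither set was lower throughout. The ranges overlapped, and POLE4 and POLA2 stood at either end among the genes with a word. The CCAAT word, common to promoters in general, was in 41.7% of the member promoters and in 36.3% of those of the count table. Such a match is a description of the letters and not of binding.

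Among the 8 genes of the clamp and its loaders the median log2 fold change was -0.04 (2 above 0 and 6 below), and 0.02 (4 above and 4 below) without siCTR replicate 2. None passed an unadjusted p under 0.05 with edgeR, DESeq2 or limma-voom, and the intervals of all 8 lay between -0.5 and 0.5. PCNA, the sliding clamp, was at 176, 250 and 197 CPM in siCTR and 173, 203 and 199 CPM in siLSD1. The siCTR replicate 2 value was again outside the others, here as the highest. The log2 fold change of -0.11 (SE 0.14) became 0.05 without it.

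RFC1, the large subunit that defines the replicative clamp loader, was at 134, 126 and 131 CPM in siCTR and at 136, 142 and 166 CPM in siLSD1. The groups did not overlap, but siLSD1 replicate 1 lay only just above siCTR replicate 1. The log2 fold change was 0.18 (SE 0.11, unadjusted p = 0.136 and adjusted p = 0.503 by edgeR's quasi-likelihood test), and 0.09 without siLSD1 replicate 3. The small subunits RFC2, RFC3, RFC4 and RFC5, shared by all the loaders, had log2 fold changes of -0.08, 0.04, -0.04 and -0.01, and of -0.02, 0.09, 0.07 and -0.00 without siCTR replicate 2. CHTF18, which replaces RFC1 in the loader tied to sister chromatid cohesion, was at -0.10 (SE 0.16), with -0.22 without siCTR replicate 2 and 0.05 without siLSD1 replicate 3, and ATAD5, which takes PCNA off DNA, at -0.03 (SE 0.12).

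Over the 6 genes of Okazaki fragment processing the median was -0.14 (5 below 0 and 1 above), and -0.06 (4 below and 2 above) without siCTR replicate 2. None passed an unadjusted p under 0.05 with edgeR, DESeq2 or limma-voom. Their summed level was 547.8 to 662.7 CPM in siCTR and 497.2 to 567.4 CPM in siLSD1, so the groups overlapped. DNA2, a nuclease and helicase that cuts long flaps, was at 99.9, 110 and 103 CPM in siCTR and 95.8, 92.1 and 90.4 CPM in siLSD1. The groups did not overlap, and the log2 fold change was -0.17 (SE 0.11, unadjusted p = 0.142 and adjusted p = 0.509 by edgeR's quasi-likelihood test).

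FEN1, the flap endonuclease, was at 227, 286 and 221 CPM in siCTR and 233, 223 and 204 CPM in siLSD1. Its log2 fold change of -0.15 (SE 0.12) was -0.02 without siCTR replicate 2, the highest library. LIG1, which seals the nick, was at 50.7, 41.7 and 45.1 CPM in siCTR and 46.6, 43.5 and 35.1 CPM in siLSD1, a log2 fold change of -0.14 (SE 0.14) that was -0.02 without siLSD1 replicate 3. RNase H2 removes ribonucleotides from DNA. Its catalytic subunit RNASEH2A and the accessory subunits RNASEH2B and RNASEH2C had log2 fold changes of 0.03, -0.13 and -0.24. Without siCTR replicate 2 these were 0.16, 0.02 and -0.10, and RNASEH2C was also at -0.10 without siLSD1 replicate 3. Of the exon bases of RNASEH2A, 53.3% are shared with THSD8 on the same strand, and 28.9% of those of RNASEH2C with KAT5 on the opposite strand, and since the strand setting of the counting was not stated these counts may include reads of the neighbouring gene.

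TIMELESS forms the fork protection complex with TIPIN, travels with the replicative helicase and keeps it coupled to polymerase epsilon. Its counts were 2289, 1952 and 2311 in siCTR and 2787, 2554 and 2666 in siLSD1, or 176, 152 and 172 CPM against 208, 205 and 198 CPM. Every siLSD1 library lay above every siCTR library, and siCTR replicate 2 was the lowest of the 6. The means were 167 ± 12.9 for siCTR and 203 ± 5.18 CPM for siLSD1 (SD, n = 3), a 1.22-fold difference. The log2 fold change was 0.29 (SE 0.11, 95% confidence interval 0.06 to 0.52), with an unadjusted p of 0.0189 and an adjusted p of 0.240 by edgeR's quasi-likelihood test. Without siCTR replicate 2 it was 0.23 (unadjusted p = 0.0246 by edgeR), and without siLSD1 replicate 2 it was 0.29 (unadjusted p = 0.0735 by edgeR). The gene lies at chr12:56416363-56449426 on GRCh38, and GENCODE gives no exon of another gene over its exons, nor over those of POLB and POLE4.

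TIPIN, the small partner of TIMELESS, was counted 361, 452 and 341 times in siCTR, and 344, 329 and 440 times in siLSD1, with 1 high library in each group. Its log2 fold change was -0.06 (SE 0.15), with 0.09 without siCTR replicate 2 and -0.18 without siLSD1 replicate 3. The ratio of TIMELESS to TIPIN on the FPKM scale was 2.16, 1.47 and 2.31 in siCTR and 2.76, 2.64 and 2.06 in siLSD1, and these ranges overlapped. Of the exon bases of TIPIN, 21.1% are shared with the pseudogene RPL9P25 on the same strand. WDHD1, a hub that ties polymerase alpha to the helicase, had a log2 fold change of -0.00 (SE 0.13).

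POLB, the polymerase that fills the gap in base excision repair, had the largest change in size among the 40 genes. It was counted in 316, 427 and 394 reads in siCTR and in 276, 268 and 297 reads in siLSD1, or 24.3, 33.2 and 29.3 CPM against 20.6, 21.5 and 22.0 CPM. All siLSD1 libraries lay within 2 CPM of each other and below every siCTR library, of which siCTR replicate 1 was the nearest. The means were 29.0 ± 4.47 CPM (SD, n = 3) and 21.4 ± 0.736 CPM, so siLSD1 stood at 0.738 of the siCTR level. The log2 fold change was -0.44 (SE 0.14, 95% confidence interval -0.74 to -0.13), with an unadjusted p of 0.00854 and an adjusted p of 0.174 by edgeR's quasi-likelihood test. With each library left out in turn it ranged from -0.55 to -0.33, and the unadjusted p by edgeR reached at most 0.0350, without siCTR replicate 2.

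The other repair polymerases gave values near 0. POLL, which fills gaps in end joining, had a log2 fold change of 0.02 (SE 0.15), and POLQ, the polymerase of microhomology-mediated end joining, 0.03 (SE 0.14). The POLQ value was -0.10 without siCTR replicate 2.

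Among the 6 translesion genes the median log2 fold change was -0.02 (3 above 0 and 3 below), and siCTR and siLSD1 overlapped in each of them. None passed an unadjusted p under 0.05 with edgeR, DESeq2 or limma-voom. MAD2L2, a subunit of polymerase zeta that also acts in end protection, had the lowest value at -0.30 (SE 0.17, unadjusted p = 0.0976 and adjusted p = 0.449 by edgeR's quasi-likelihood test), with -0.14 without siCTR replicate 2 and -0.15 without siLSD1 replicate 3. REV3L, the catalytic subunit of polymerase zeta, and REV1, a scaffold for the translesion polymerases, were at -0.14 (SE 0.14) and -0.10 (SE 0.11), and REV3L ran from -0.26 without siCTR replicate 2 to -0.06 without siLSD1 replicate 1. POLK, POLI and PRIMPOL, a primase that restarts synthesis past lesions, were at 0.09, 0.07 and 0.10, the last on 52 to 75 reads per library.

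POLG, the catalytic subunit of the mitochondrial polymerase, was at 169, 121 and 141 CPM in siCTR and 168, 154 and 134 CPM in siLSD1. The groups overlapped, and the log2 fold change was 0.08 (SE 0.14), or -0.03 without siCTR replicate 2. POLG2, its accessory subunit, was at -0.06 (SE 0.15), or 0.10 without that library.

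**Figure D2:**
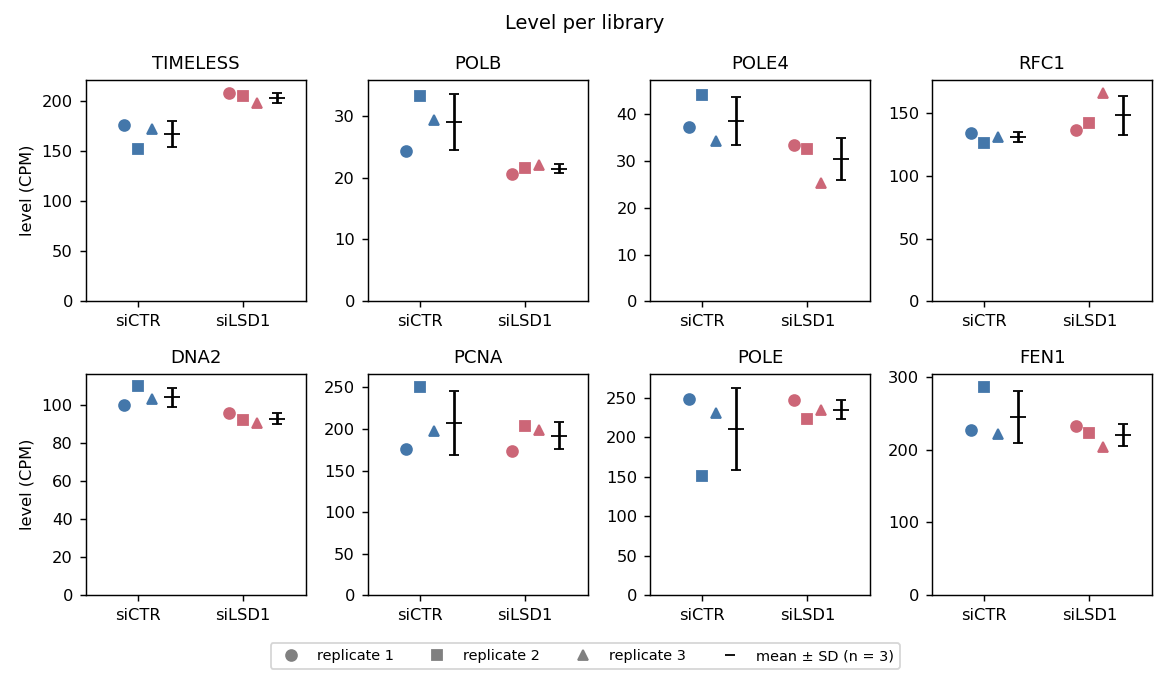
Level of 8 of the genes in each library (points, in CPM from 0, shaped by replicate number), with the mean ± SD of 3 libraries per group (black). In TIMELESS and RFC1 the siLSD1 libraries all lie above siCTR and in POLB, POLE4 and DNA2 below, while siCTR replicate 2 is the extreme value of PCNA, POLE and FEN1.

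The separate behaviour of siCTR replicate 2 followed gene length among these genes. On the log2 CPM scale, its difference from the mean of siCTR replicates 1 and 3 had a Pearson r of -0.617 and a Spearman rho of -0.632 with log2 gene length over the 40 genes, and -0.439 and -0.495 over all tested genes. The points share the same libraries, so the correlation is a description. Of the 10 shortest genes, up to 1961 bases, 9 were higher in siCTR replicate 2, with a median difference of 0.31. Of the 10 longest, from 5125 bases, 3 were higher, with a median of -0.19. POLE, at 7840 bases, was the farthest below at -0.66, and PCNA and POLG2 the farthest above at 0.43. RNASEH2B, with the greatest length at 12159 bases, was an exception at 0.41. That length is the one behind its FPKM, and its longest annotated transcript has 7282 bases.

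siCTR replicate 2 held the highest of the 6 values in 16 of the 40 genes (40.0%), against 27.2% of all tested genes. Without it, 13 of the 40 genes changed the side of 0 on which they lay, among them POLE, RNASEH2B and PCNA, and none of these exceeded 0.16 in size with all libraries or 0.10 without that library. TIMELESS and POLB kept their side and an unadjusted p under 0.05 by edgeR without this library, and POLE4 kept its side but not that p.

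**Figure D3:**
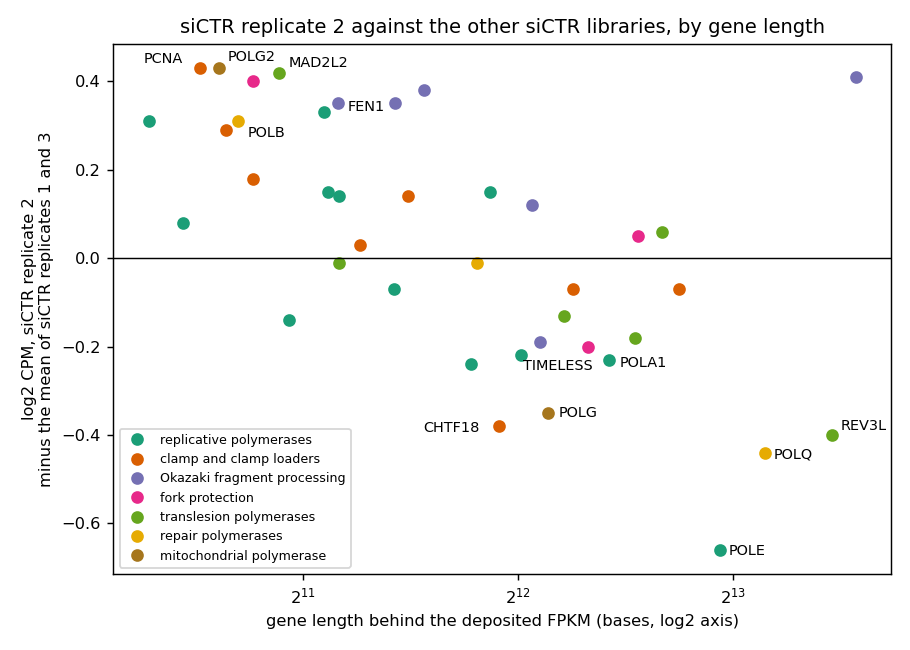
Difference of siCTR replicate 2 from the mean of siCTR replicates 1 and 3 (vertical axis, log2 CPM) against gene length (horizontal axis, bases on a log2 scale) for the 40 genes, coloured by role. Most short genes such as PCNA and POLG2 lie above 0 and most long genes such as POLE and POLQ below. RNASEH2B, placed by the length behind its FPKM, is an exception at the upper right.

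Removing the trend of each library on GC content and transcript length narrowed the errors and changed the calls. With this correction TIMELESS rose by 0.24 on the log2 scale (SE 0.07, adjusted p = 0.0456 by edgeR's quasi-likelihood test) and POLB fell by 0.35 (SE 0.09, adjusted p = 0.0411 by edgeR). The 2 calls among 40 genes stand beside 7.41% of all tested genes called under the same correction. POLE4 had a corrected value of -0.27 (adjusted p = 0.165 by edgeR). At an unadjusted p under 0.05, POLA1, REV3L and RFC1 joined these 3 genes, with corrected log2 fold changes of -0.17, -0.22 and 0.15, which makes 6 of 40 against 24.3% of all tested genes. With siCTR replicate 2 left out as well, a setting chosen after seeing the data, POLA1, POLB, REV3L and TIMELESS passed an adjusted p under 0.05 by edgeR, 4 of 40 against 8.48% of all tested genes.

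**Figure D4:**
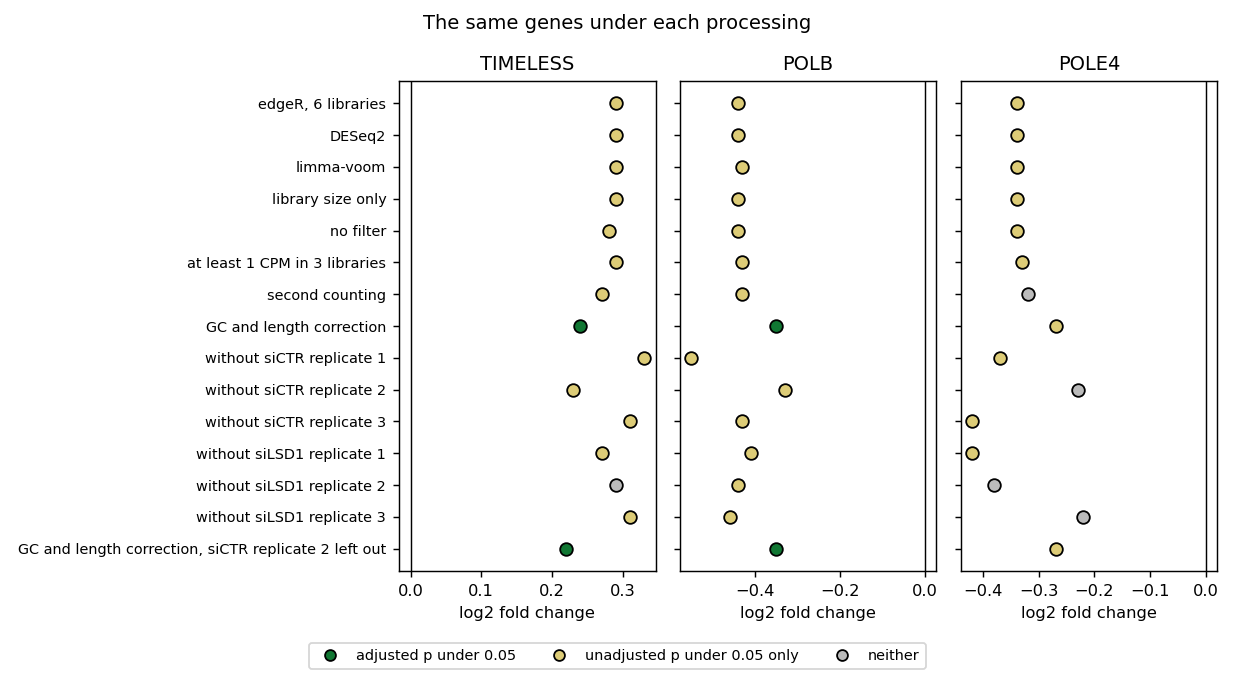
Log2 fold change of TIMELESS, POLB and POLE4 in siLSD1 against siCTR (horizontal axes, each with its own range) under the main edgeR fit and 14 other settings, with colour for the threshold passed. TIMELESS stays above 0 and POLB and POLE4 below 0 throughout, and the adjusted threshold is passed for TIMELESS and POLB in both settings with the GC and length correction.

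Levels between genes were compared only per length, on the deposited FPKM scale. PCNA had the highest mean of the 40 transcripts in siCTR, at 121, 168 and 134 FPKM in siCTR and 119, 138 and 135 FPKM in siLSD1, followed by FEN1 at 96.3 to 123 FPKM and POLD2 at 90.3 to 98.5 FPKM in siCTR. The siCTR ranges of PCNA and FEN1 overlapped, as did those of FEN1, POLD2 and RFC4, so the order of neighbours was not settled by the spread over libraries. Within each of the 6 libraries PCNA was above FEN1 and FEN1 above POLD2, while POLD2 and RFC4 changed places. At the other end stood POLD4, at 0.509 to 0.635 FPKM in siCTR, and then PRIMPOL at 1.76 to 2.39 and RNASEH2B at 2.46 to 3.24 FPKM. The translesion polymerases POLI and POLK, at 2.86 to 3.26 and 5.74 to 7.38 FPKM in siCTR, were also low. With exon lengths from the annotation PCNA and FEN1 stayed at ranks 1 and 2 and POLD4 at rank 40, while POLD2 moved from rank 3 to 9 and POLA2 from 36 to 39, so the order in between depends on the length used.

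Subunits of the same complex were not at equal levels. In siCTR the FPKM of POLA1 was 13.7 ± 2.16 times that of POLA2 (SD, n = 3), against 10.7 ± 2.38 times in siLSD1. POLD2 was 170 ± 25.9 times POLD4 in siCTR, a ratio that rests on 13 to 16 POLD4 reads per library, and 182 ± 14.3 times in siLSD1. Within replication factor C, RFC4 was 3.33 ± 0.506 times RFC1 in siCTR and 2.86 ± 0.0510 times in siLSD1, with the siCTR ratio highest in replicate 2.

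These ratios depend on the gene length behind the FPKM. Some counts may also include reads of another gene, since 21.3% of the exon bases of POLD4 and 16.8% of those of POLA2 are shared with another gene on the same strand. With lengths taken from the union of GENCODE exons, the siCTR ratio was 76.1 for POLD2 to POLD4, 2.44 for RFC4 to RFC1 and 15.6 for POLA1 to POLA2. Taken as a fold, the RNase H2 subunits showed the widest difference between the lengths. RNASEH2A was at 12.2 ± 0.385 times RNASEH2B by the deposited FPKM and 35.3 times with the exon lengths. Both lengths exceed the longest annotated transcript, at 12159 and 26222 against 7282 bases for RNASEH2B. For RNASEH2A they are 2753 and 2056 against 1245 bases. The low level of RNASEH2B per length is therefore not settled, and in CPM the siCTR means were 92.2 for RNASEH2A and 33.4 for RNASEH2B. For polymerase epsilon, POLE3 was 5.38 ± 0.395 times POLE2, and for polymerase gamma, POLG was 2.17 ± 0.678 times POLG2, both in siCTR.

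**Figure D5:**
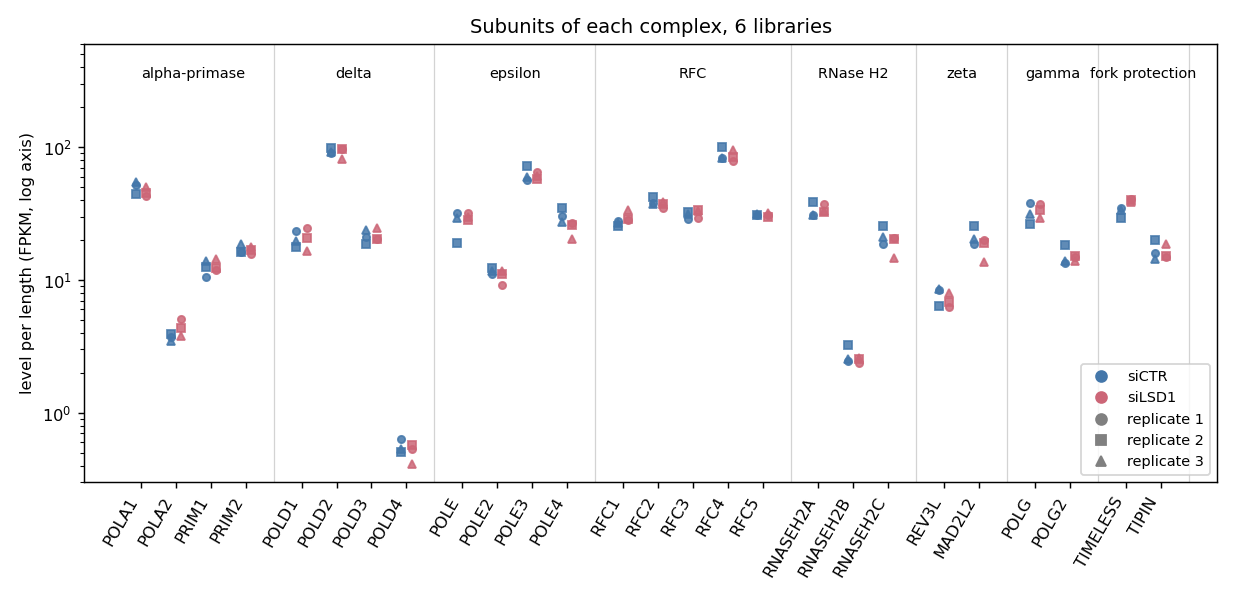
Level per length of the subunits of 8 complexes in each of the 6 libraries (vertical axis, FPKM on a log axis), coloured by group and shaped by replicate number. POLA2, POLD4 and RNASEH2B lie below the other subunits of their complexes in all 6 libraries, by more than the distance between siCTR and siLSD1. The length behind the FPKM of RNASEH2B exceeds its longest annotated transcript.

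Of 58 other genes of the same pathways, 1 (1.72%) passed an adjusted p under 0.05 by edgeR, against 1.44% of all tested genes. RPA2, a subunit of the complex that coats the DNA strand opened by the helicase, stood at 86.7, 111 and 83.7 CPM in siCTR and at 38.4, 41.1 and 40.9 CPM in siLSD1. It fell by 1.22 on the log2 scale (SE 0.13, adjusted p = 0.00085 by edgeR's quasi-likelihood test), while RPA1 and RPA3 of the same complex had values of 0.12 and 0.05. The median of the 58 genes was -0.02, and 6 of them (10.3%) passed an unadjusted p under 0.05 by edgeR, against 14.0% of all tested genes.

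Among these, MCM4, a subunit of the replicative helicase, was lower at -0.26 (adjusted p = 0.286 by edgeR), and ASF1A, a histone chaperone, at -0.40 (adjusted p = 0.235 by edgeR). TFAM, which packages mitochondrial DNA, was at -0.27 (adjusted p = 0.325 by edgeR) and EXOG, a mitochondrial nuclease, at -0.30 (adjusted p = 0.321 by edgeR). All 6 mitochondrial replication partners lay below 0, with a median of -0.15. Without siCTR replicate 2 the median was -0.10 with 5 of 6 below 0 (SSBP1 at 0.17), and without siLSD1 replicate 3 it was -0.08 with 4 of 6 below. POLG and POLG2 lay on either side of 0. None of the 9 genes of base excision and end joining, the partners of POLB, POLL and POLQ, passed an unadjusted p under 0.05 with edgeR, and their median was -0.03. With the GC and length correction 2 of the 9 did, the end-joining ligase LIG4 at -0.31 (adjusted p = 0.0516 by edgeR) and the uracil glycosylase UNG at 0.19 (adjusted p = 0.145 by edgeR), against 24.3% of all tested genes.

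With the GC and length correction, RPA2, MCM4, ASF1A and ASF1B passed an adjusted p under 0.05 by edgeR, 4 of 58 (6.9%) against 7.41% of all tested genes. Of these, MCM4 fell by 0.32 (adjusted p = 0.0296 by edgeR) and ASF1A by 0.33 (adjusted p = 0.0438 by edgeR), while ASF1B rose by 0.26 (adjusted p = 0.0453 by edgeR).

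Genes that peak in S phase and in mitosis were read beside the members, since many of these are expressed with the cell cycle. The median log2 fold change of the 10 S phase genes was -0.10, and CCNE1 and CCNE2, the E cyclins that start S phase, were lower at -0.39 and -0.45 (adjusted p = 0.134 and 0.172 by edgeR's quasi-likelihood test). With the GC and length correction CCNE1 fell by 0.35 and CCNE2 by 0.42 (adjusted p = 0.0209 and 0.0463 by edgeR). These were the 2 of the 10 genes under an adjusted p of 0.05, against 7.41% of all tested genes, and the median of the 10 was -0.03. E2F1, an activator of S phase genes, lay the other way with this correction, at 0.26 (adjusted p = 0.0683 by edgeR). At an unadjusted p under 0.05, 4 of the 10 passed with the correction, against 24.3% of all tested genes. Without siLSD1 replicate 1 the uncorrected median was -0.05. The 10 genes of G2 and mitosis had a median of 0.07, with 0.02 without siLSD1 replicate 3 and 0.04 without siCTR replicate 2. None passed an unadjusted p under 0.05 with edgeR, against 14.0% of all tested genes. With the correction 1 did, the mitotic kinase AURKB at 0.25 (adjusted p = 0.0593 by edgeR), against 24.3% of all tested genes. The part of cycle distribution in the values of the 40 genes was not tested.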

How the data were processed

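Libraries were grouped by the siRNA in their labels (3 siCTR, 3 siLSD1). The authors used STAR for alignment. The authors deposited raw counts of reads for each gene and library, and FPKM, which the authors scaled by gene length and counted reads. Genome build, annotation, counter and strand setting are not given in the sources used here. The deposited size-factor-normalized signal, log2 fold changes and p-values were not used. A further set of counts of the same libraries served as an alternative, and how it was counted is not stated. It came in tables of 2 libraries each, the siCTR and siLSD1 library of the same number.

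Counts were fitted with edgeR 4.0.16 in R 4.3.3 (filterByExpr with minimum count 10, TMM, quasi-likelihood test, no covariate), and p-values were adjusted over 11844 genes by Benjamini-Hochberg. The biological coefficient of variation was 12.6%. CPM are TMM-scaled, and log-CPM used a prior count of 2. Libraries of a group differed by more than sampling noise (chi-square per degree of freedom 6.46 to 29.1). Python 3.11.15 with pandas 2.3.3, numpy 2.4.6, scipy 1.17.1 and matplotlib 3.10.9 did the rest.

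Alternatives were DESeq2 1.42.0, limma-voom (limma 3.58.1), library size only, no filter, at least 1 CPM in 3 libraries, the other counts, each library left out, the replicate number as a block, and a lowess trend (span 0.3) on GC content and length from GENCODE release 44 (GRCh38) added to the offsets. Of 15585 genes, 14963 matched GENCODE by symbol and 384 through a RefSeq synonym. The 40 genes and all lists were chosen with earlier results of these data known. Values per library are given for genes with an unadjusted p under 0.05 or groups that do not overlap and for PCNA, POLA1, POLD1, POLE, RFC1, LIG1, FEN1, POLB and POLG, and partner and phase genes are named at an unadjusted p under 0.05, of which 1 is not reported here. Other genes shown with values, such as POLA2, TIPIN, RPA1 and RPA3, were chosen after their values were seen.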

Additional observations from a re-analysis of the deposited data

How the results depend on the processing

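No gene passed an adjusted p under 0.05 with DESeq2, limma-voom, library size scaling, either filter, the other read counts or any library left out (lowest and highest count 0). The replicate block gave 1 (POLB, adjusted p = 0.0286 by edgeR), against 7.57% of all tested genes, the GC and length correction 2 without the block (7.41%) and 2 with it (11.1%), and the same correction with siCTR replicate 2 left out, chosen after seeing the data, 4 (POLA1, POLB, REV3L and TIMELESS), against 8.48% of all tested genes. At an unadjusted p under 0.05 the main 3 became 5, 6, 8 and 8 under these settings in the same order, while the share of all tested genes rose from 14.0% to 21.5%, 24.3%, 28.1% and 24.3%. With a library left out it was 1 to 4 (1, POLB, without siLSD1 replicate 2), against 8.86% to 14.3% of all tested genes. Of the other genes named, ASF1A, CCNE1, CCNE2, CDH1 and S100A4 came to pass an adjusted p under 0.05 with the block (0.0365, 0.0304, 0.0269, 0.00299 and 0.0197 by edgeR), as did LIG4, E2F1 and AURKB with the correction and the block together (0.0280, 0.0262 and 0.0329), and ASF1A was at 0.0519 with the correction and siCTR replicate 2 left out. The cause was not tested. The median stayed between -0.06 and -0.01. The block is given only here. The authors also deposited tables that each set the siCTR and siLSD1 library of the same number side by side. Whether same-numbered libraries were prepared together is not stated. The deviations of same-numbered libraries from the group means correlated at 0.328, 0.0744 and 0.310, each library best with its own number. A pairing of the libraries was therefore possible but was not settled.

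With exon lengths from the annotation, the siCTR ratios were 76.1 (POLD2 to POLD4), 5.98 (POLE3 to POLE2), 2.44 (RFC4 to RFC1), 35.3 (RNASEH2A to RNASEH2B), 3.44 (POLG to POLG2), 2.72 (TIMELESS to TIPIN) and 1.11 (MAD2L2 to REV3L).

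Of the 40 genes, 17 kept their side of 0 under all 16 alternatives. The other 23, none larger in size than 0.16, changed side at least once. Under the GC and length correction, without and then with the block, PRIM2 was at 0.00 and 0.00, RFC4 at 0.02 and 0.02, RFC5 at 0.01 and 0.01, CHTF18 at 0.03 and 0.04, TIPIN at 0.01 and 0.02, POLK at -0.00 and -0.01 and POLQ at -0.04 and -0.03. With the correction and siCTR replicate 2 left out, POLD2 was at 0.04, POLD3 -0.06, POLE -0.00, POLE3 0.06, PCNA 0.01, RFC4 0.03, RNASEH2B 0.01, TIPIN 0.06, WDHD1 0.01, POLQ -0.10, POLG -0.02 and POLG2 0.07. WDHD1 was at 0.00 with at least 1 CPM in 3 libraries. With a library left out, values ran from -0.06 to 0.15 (PRIM1), -0.07 to 0.04 (PRIM2), -0.13 to 0.15 (POLD1), -0.07 to 0.04 (POLD2), -0.06 to 0.12 (POLD3), -0.03 to 0.30 (POLE), -0.12 to 0.08 (POLE3), -0.22 to 0.05 (PCNA), -0.01 to 0.11 (RFC3), -0.13 to 0.07 (RFC4), -0.05 to 0.02 (RFC5), -0.25 to 0.05 (CHTF18), -0.11 to 0.02 (ATAD5), -0.03 to 0.16 (RNASEH2A), -0.22 to 0.02 (RNASEH2B), -0.18 to 0.09 (TIPIN), -0.12 to 0.12 (WDHD1), -0.05 to 0.26 (POLK), -0.01 to 0.22 (PRIMPOL), -0.09 to 0.13 (POLL), -0.10 to 0.12 (POLQ), -0.03 to 0.21 (POLG) and -0.15 to 0.10 (POLG2). Among genes that kept their side, values ran from -0.21 to -0.08 (POLA1), 0.13 to 0.34 (POLA2), -0.23 to -0.02 (POLD4), -0.21 to -0.04 (POLE2), -0.42 to -0.22 (POLE4), 0.09 to 0.24 (RFC1), -0.12 to -0.02 (RFC2), -0.22 to -0.02 (FEN1), -0.22 to -0.02 (LIG1), -0.35 to -0.10 (RNASEH2C), -0.40 to -0.14 (MAD2L2), -0.26 to -0.06 (REV3L) and 0.01 to 0.11 (POLI). Class medians ran from -0.06 to -0.01 (replicative), -0.08 to 0.02 (clamp), -0.20 to -0.06 (Okazaki), -0.07 to 0.02 (translesion) and -0.06 to 0.03 (base excision partners). Depth limited POLD4, at 11 to 16 reads per library, and PRIMPOL.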
